A study of Mus musculus with 4 samples.

Results

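Histone chaperones carry histones H3 and H4 and deposit them on DNA. The 10 genes described here encode such proteins and were found by their symbols among the 25239 of the count tables. They are the CAF-1 subunits Chaf1a and Chaf1b, the ASF1 paralogs Asf1a and Asf1b, Nasp, Hira, the partners Atrx and Daxx, and the paralogs Rbbp4 and Rbbp7. All 10 had enough counts to be tested. The libraries held polyadenylated RNA of mESC (mouse embryonic stem cells) of the genotype Ogt fl/fl, in which recombination can remove Ogt. Ogt encodes O-GlcNAc transferase, which attaches a single sugar to nuclear and cytoplasmic proteins. The Ogt iKO group was 2 libraries from cells kept in 4-OHT (4-hydroxytamoxifen, which activates tamoxifen-dependent recombinases) for 6 days, and the control group was 2 libraries from cells of the same genotype kept without it for 6 days. All cells grew on inactivated mouse fibroblasts with LIF, a cytokine that maintains the stem cell state, and were sorted alive and away from the feeders. The treated cells alone were also sorted for a yellow fluorescent protein, and the labels name no group that received 4-OHT with Ogt intact, so ligand, recombinase, sorting and loss of Ogt cannot be told apart. The labels do not say whether the libraries of a group came from separate cultures, so the p-values measure only the spread between these libraries, which may be technical. Changes below are of Ogt iKO over control.

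Histones H3 and H4 never travel free in the cell. During DNA replication, CAF-1 is held at the fork by the sliding clamp PCNA and deposits new H3-H4 behind it, after ASF1 hands the histones over and NASP keeps a soluble reserve of them. Outside replication, the variant H3.3 is deposited by HIRA, mainly at active genes and promoters, and by ATRX with DAXX, mainly at telomeres, pericentric repeats and silenced transposable elements. The grouping is not strict: ASF1A also serves HIRA, and RBBP4, the third CAF-1 subunit, also sits with RBBP7 in Polycomb and histone deacetylase complexes. In mESC, depletion of CAF-1 is known to raise the share of cells that resemble the 2-cell embryo.

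Total counts per library ran from 14668489 to 16504204. A gene at 0 could still be present at 3 counts. On these totals alone, 3 counts are 0.182 to 0.205 CPM (the count scaled to a common library size). All other CPM values are on library sizes with TMM scaling, so this range is not on their scale. The limit of 3 counts covers counting error only. The deleted gene matched the labels: Ogt was counted 437 and 389 times in Ogt iKO and 2963 and 3108 times in control (edgeR, log2 fold change -2.96, adjusted p = 2.486e-07). Of 16 stem cell markers listed for the check, 0 were absent from all libraries. Their summed level was 3308 and 3733 CPM in Ogt iKO and 5907 and 5888 CPM in control. All 20 fibroblast markers were detected, with summed levels of 5339 and 2452 CPM in Ogt iKO replicates 1 and 2 and 2997 and 3297 CPM in control. Ogt iKO replicate 1 thus stood apart in the summed level of these markers, and Ogt iKO replicate 2 lay below both controls. The markers did not move together: 5 were called higher, 1 lower and 14 were not called. The part of fibroblast RNA in the results was not tested. Values of the chaperone genes without Ogt iKO replicate 1 are given with those of Nasp.

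Of the 10 chaperone genes, 6 fell, 1 rose and 3 were not called at an adjusted p under 0.05 (edgeR, quasi-likelihood test, Benjamini-Hochberg over all 14525 genes tested). Across all genes 32.0% were called lower and 33.2% higher, 65.3% in all. The median log2 fold change was -0.43 for the 10 chaperone genes and 0.02 for all genes tested. The largest change was the fall of Chaf1b, with a log2 fold change of -1.93. The values of the others that fell were -0.91 for Nasp, -0.90 for Asf1b, -0.65 for Hira, -0.48 for Rbbp4 and -0.39 for Chaf1a. Rbbp7 rose by 0.29, and the values of Asf1a, Daxx and Atrx lay between -0.14 and 0.11. The libraries of the groups did not overlap for the 6 genes that fell, against 40.9% of all genes tested lying wholly lower, nor for the one that rose, against 42.3% lying wholly higher (83.2% in either direction). Scaling by library totals alone shifted the median of all genes from 0.024 to 0.19 and moved their split from 4827 higher and 4651 lower to 6116 and 3282. Under it the chaperone genes were split 2 higher and 6 lower, with Atrx added to the higher ones.

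**Figure D1:**
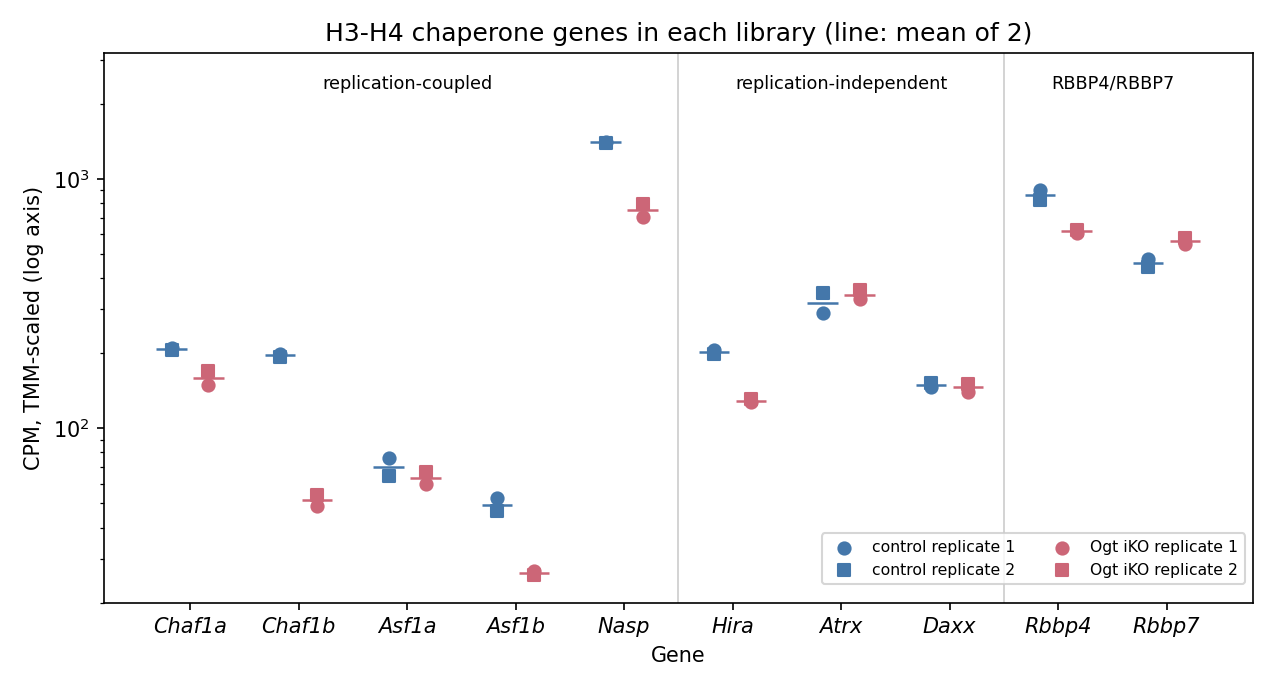
CPM with TMM scaling (log axis) of each chaperone gene in each library, with circles for replicate 1, squares for replicate 2 and a line for the mean of the 2 libraries of a group. The Chaf1b points of Ogt iKO sit at 49.0 and 54.0 CPM, below the controls at 199 and 193 CPM, whereas the points of Asf1a, Atrx and Daxx overlap between groups.

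**Figure D2:**
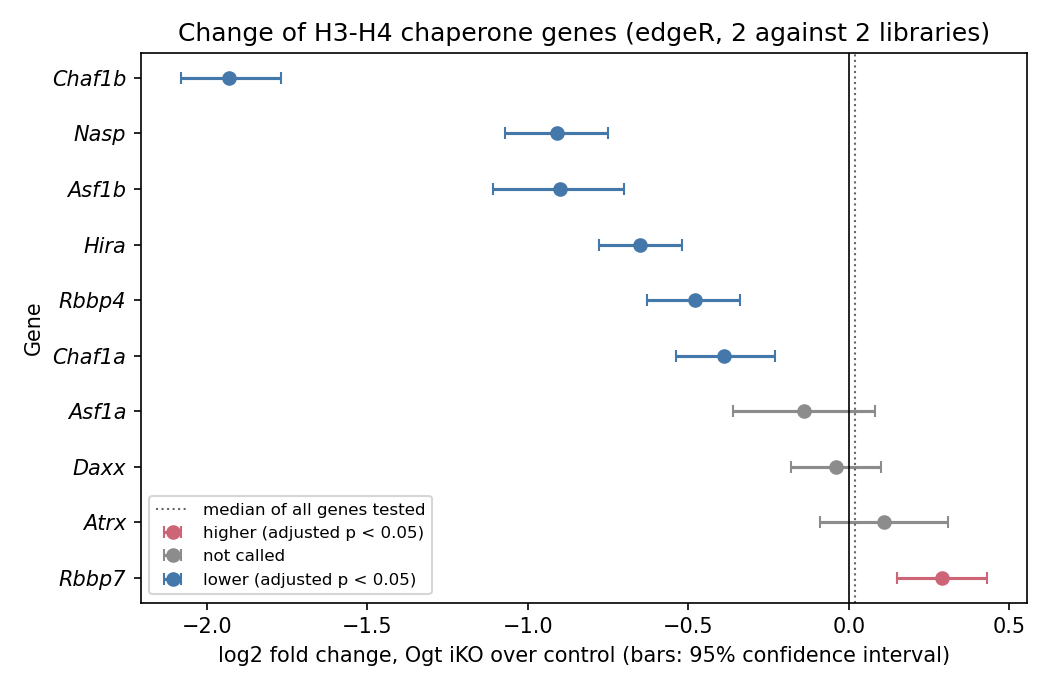
Log2 fold change of each chaperone gene (Ogt iKO over control, edgeR) with its 95% confidence interval, coloured by call, and the median of all genes tested as a dotted line. Chaf1b lies at -1.93, apart from the next gene at -0.91, and Rbbp7 at 0.29 is the one gene called higher.

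Grouped by the kind of deposition, 4 of the 5 replication-coupled genes (Chaf1a, Chaf1b, Asf1a, Asf1b, Nasp) fell and 0 rose, with a median of -0.90. Of the 3 replication-independent genes (Hira, Atrx, Daxx) 1 fell and 0 rose, with a median of -0.04. Over all genes tested 32.0% fell and 33.2% rose, so 1 of 3 (33.3%) is the share of genes in general. The divide is not clean, because Hira fell while Asf1a was not called, and the difference between the groups was not tested. Summed over the genes, the replication-coupled group had 987 and 1111 CPM in Ogt iKO and 1943 and 1910 CPM in control. The replication-independent group had 598 and 640 CPM in Ogt iKO against 643 and 698 CPM in control. In bulk RNA, fewer cells that express a gene and less RNA per cell cannot be told apart. A call of Atrx as higher, in the fit without control replicate 2 or on library totals, gives the replication-independent group 1 gene higher.

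Both CAF-1 subunit genes fell, Chaf1b by far more than Chaf1a. Chaf1b encodes the WD-repeat subunit that binds ASF1. The gene spans 93883900 to 93906115 of chromosome 16 (GRCm38) and was counted 838 and 837 times in Ogt iKO and 3075 and 2955 times in control. Chaf1b averaged 196 CPM in the controls (SD 4.26, n = 2) and 51.5 CPM after 4-OHT (SD 3.50, n = 2), with 26.3% of the control level left in the fit. The log2 fold change of Chaf1b, -1.93, had an SE of 0.0682, a 95% confidence interval of -2.08 to -1.77 and an adjusted p of 5.318e-07 (edgeR). Of all genes tested, 1.01% had a lower value. Chaf1a encodes the large subunit that binds PCNA and heterochromatin protein HP1. The gene spans 56040416 to 56068026 of chromosome 17 and had 149 and 169 CPM in Ogt iKO against 210 and 206 CPM in control. The Chaf1a libraries did not overlap either, but the fall was small, to 76.4% of control (edgeR, log2 fold change -0.39, adjusted p = 0.001206). Part of the Chaf1a exons (52.5% of their length) lies under exons of Ubxn6 on the opposite strand, and the strand counted is not stated in the sources used here, so the reads of both cannot be told apart. Ubxn6 had 550 and 545 counts in Ogt iKO and 648 and 577 in control.

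The Chaf1b to Chaf1a ratio of counts, which no scaling of libraries can change, was 0.328 and 0.320 in the Ogt iKO libraries and 0.947 and 0.934 in the controls. On the log2 scale the ratio differed by -1.54 between groups, many times the distance between libraries of a group. An exact two-sided permutation test of 2 against 2 libraries cannot give a p below 0.333, the value found for each of the 4 pairs of genes compared (adjusted p = 0.333 for each), so these ratios are a description.

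The promoters of the CAF-1 genes are shown because their transcripts moved by such different amounts. They are the 250 bases before the start that RefSeq's promoter table lists (GRCm38.p6), 5′ to 3′ on the gene's strand, and positions are counted from that start. Capitals mark the core of the site read by E2F factors, which drive genes of S phase (searched on either strand as the form TTCCCGC, the form TTGGCGC, the form TTCGCGC and the form TTGCCGC, with overlaps allowed).
Chaf1b, chr16:93883651-93883900, plus strand: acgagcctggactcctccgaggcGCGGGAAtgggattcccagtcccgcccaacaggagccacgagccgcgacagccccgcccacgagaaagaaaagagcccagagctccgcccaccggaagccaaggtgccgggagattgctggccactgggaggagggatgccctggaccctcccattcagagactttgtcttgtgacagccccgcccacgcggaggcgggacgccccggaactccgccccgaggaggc
Chaf1a, chr17:56040166-56040415, plus strand: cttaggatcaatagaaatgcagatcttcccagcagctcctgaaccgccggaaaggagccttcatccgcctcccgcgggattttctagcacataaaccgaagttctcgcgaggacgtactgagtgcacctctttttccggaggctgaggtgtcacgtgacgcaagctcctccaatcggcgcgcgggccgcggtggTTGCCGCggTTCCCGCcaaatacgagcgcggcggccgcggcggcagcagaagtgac
Chaf1a held 2 such cores, 56 to 50 and 47 to 41 bases before its start. Chaf1b held 1, on the reverse strand, 227 to 221 bases before its start. With the 50 bases after the start included, both genes held 2, so the difference in number is limited to the bases before the start. Of all 32851 RefSeq promoters of this length 7.89% held at least 1 core, and of the 14566 that belong to genes tested here 13.4% did. Of the 10 chaperone genes 3 did, with Rbbp4 the third. A match says that the letters are present and nothing about binding.

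Among the genes whose values over the 4 libraries lay nearest to those of Chaf1b were Bckdk, Reep6, E2f8 and Lncenc1, by Euclidean distance between log2(CPM + 0.5) profiles centred on each gene's mean (distances 0.00849 to 0.0798). Bckdk went from 117 and 114 CPM in control to 28.8 and 31.5 CPM in Ogt iKO. E2f8, an E2F family repressor of cell cycle genes, went from 117 and 109 CPM to 27.6 and 29.2 CPM. With 2 groups of 2 libraries, such likeness says little more than that these genes fell by the same amount (log2 fold changes -1.99 to -1.89). Of the tested genes beside Chaf1b on the chromosome, Morc3, 7823 bases before it, fell by 0.33 and Hlcs, the next one after it, rose by 0.85.

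**Figure D3:**
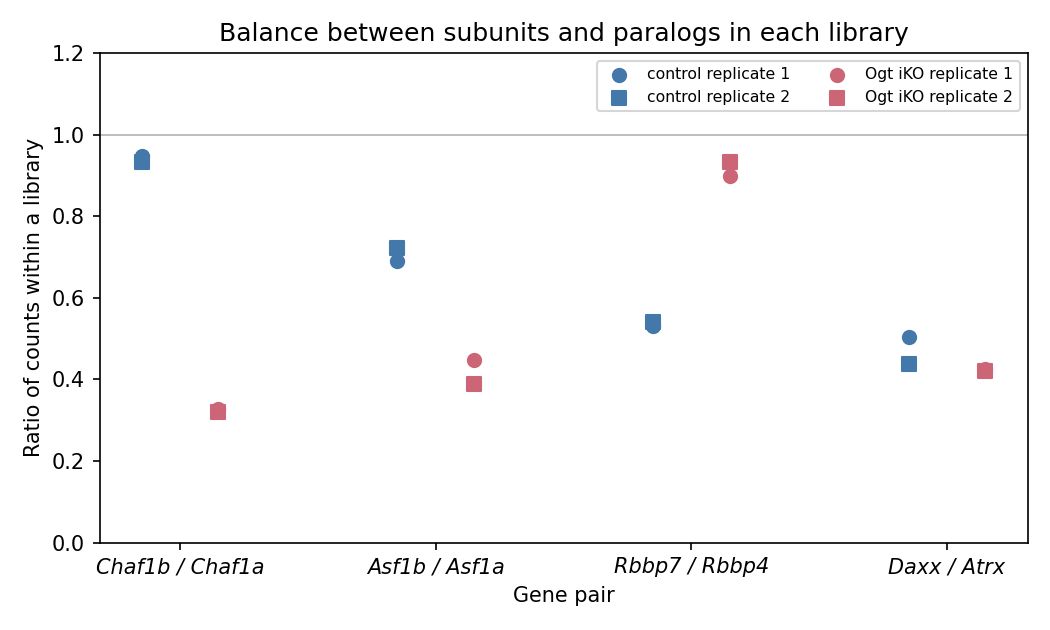
Ratio of the counts of paired genes within each library (linear axis from 0), with circles for replicate 1 and squares for replicate 2. The Chaf1b to Chaf1a ratio falls from 0.947 and 0.934 in control to 0.328 and 0.320 in Ogt iKO, while the Rbbp7 to Rbbp4 ratio rises from 0.530 and 0.541 to 0.899 and 0.933.

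The ASF1 paralogs also separated. ASF1A and ASF1B pass H3-H4 dimers to the deposition machinery, ASF1B being the form tied to dividing cells and ASF1A the one preferred by HIRA. Asf1b, on chromosome 8 from 83955694 to 83970195, had 26.8 and 25.9 CPM in Ogt iKO against 52.4 and 46.4 CPM in control. Both Ogt iKO libraries lay below both controls, and the level left was 53.4% of control (edgeR, log2 fold change -0.90, adjusted p = 5.135e-05). Asf1a, on chromosome 10 from 53596961 to 53609225, had 60.0 and 66.9 CPM in Ogt iKO and 75.8 and 64.2 CPM in control. The groups overlapped for Asf1a, with a log2 fold change of -0.14 and a 95% confidence interval of -0.36 to 0.08. A fall of the size seen for Asf1b lies outside that interval. A fit without 1 library takes its spread only from the group left whole. The values of Asf1a in such fits ran from -0.27 to -0.02, with -0.25 without Ogt iKO replicate 2. On library totals the value of Asf1a was 0.03. Part of the Asf1a exon length (48.05%) lies under exons of Mcm9 on the opposite strand, so reads of both cannot be told apart. Of the principal Asf1a transcript, 68.8% matches Mcm9. Mcm9 had 507 and 383 counts in Ogt iKO and 449 and 421 in control. The Asf1b to Asf1a ratio was 0.447 and 0.388 in Ogt iKO and 0.691 and 0.723 in control. The coding sequences of the paralogs are 71.9% identical over 606 aligned bases.

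Nasp had the most counts of the chaperone genes, and its value was close to that of Asf1b. NASP shields the soluble pool of H3-H4 from degradation. The gene spans 116601052 to 116628676 of chromosome 4 and was counted 12003 and 12335 times in Ogt iKO and 21762 and 21477 times in control. This was 702 and 795 CPM against 1406 and 1400 CPM, and no Ogt iKO library came near a control. The fall to 53.4% of control (edgeR, log2 fold change -0.91, SE 0.0702) had an adjusted p of 1.407e-05. Without Ogt iKO replicate 1, the library with the highest sum of fibroblast markers, Chaf1b had -1.85, Nasp -0.81, Asf1b -0.92 and Hira -0.62. Rbbp4 then had -0.46, Chaf1a -0.30, Rbbp7 0.34, Asf1a -0.06, Atrx 0.17 and Daxx 0.02. All of these except Asf1b lay above the value from all libraries. The lowest and highest values over the fits that each left out 1 library were -1.02 and -0.81 for Nasp and -2.02 and -1.85 for Chaf1b. The promoter of Nasp is shown for contrast with those of CAF-1: it held no E2F core, and capitals mark a cell cycle homology region (TTTGAA, either strand), 130 to 125 bases before the listed start. That start lies 725 bases inside the gene span given above, so the window shown is within the span.
Nasp, chr4:116627952-116628201, minus strand: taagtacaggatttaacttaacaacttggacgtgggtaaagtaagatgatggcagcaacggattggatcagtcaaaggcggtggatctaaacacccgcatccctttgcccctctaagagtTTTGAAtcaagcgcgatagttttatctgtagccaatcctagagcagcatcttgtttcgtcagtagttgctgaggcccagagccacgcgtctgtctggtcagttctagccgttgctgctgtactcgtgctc
That element was in 10.6% of the RefSeq promoters of genes tested, at this length. Among the chaperone genes Asf1b also held it, 14 to 9 bases before its start, and the other 8 did not. A CCAAT box on either strand was in 8 of the 10 and in 33.8% of all promoters of this length.

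Hira fell, and its partners moved in different directions. HIRA is the subunit that holds the complex for H3.3 deposition together. The gene spans 18876750 to 18970309 of chromosome 16 and had 127 and 131 CPM in Ogt iKO against 206 and 198 CPM in control, with no overlap. The level left was 63.9% of control (edgeR, log2 fold change -0.65, SE 0.0573, adjusted p = 2.779e-05). Mrpl40, which encodes a mitochondrial ribosomal protein and lies 113 bases before the Hira start, had a log2 fold change of -0.64 (SE 0.0763). GENCODE also places a gene model, Gm28539, over 44.7% of the Hira exon length on the same strand, and it is no row of the count tables. Of the principal Hira transcript, 66.0% matches Gm28539. Of the other subunits of the complex, Ubn2 rose by 0.84, from 60.5 and 69.4 CPM in control to 126 and 108 CPM in Ogt iKO. Ubn1 rose by 0.25 and Cabin1 fell by 0.22. Without Ogt iKO replicate 1 or control replicate 2, 1 of the 7 partner genes of HIRA and of ATRX-DAXX was called higher in place of 3.

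Atrx and Daxx, which deposit H3.3 in heterochromatin, were not called. Atrx encodes a SWI/SNF-like remodeller and lies on chromosome X from 105797615 to 105929372. It had 331 and 358 CPM in Ogt iKO and 290 and 348 CPM in control, so the groups overlapped, and control replicate 1 was the low library. Its log2 fold change was 0.11 (95% confidence interval -0.09 to 0.31, adjusted p = 0.2927, edgeR). Without control replicate 2 it was 0.24, on library totals 0.28 (adjusted p = 0.0248, edgeR), and without control replicate 1 it was -0.02. Daxx, which encodes the partner that binds H3.3 itself, lies on chromosome 17 from 33909404 to 33915590. It had 140 and 151 CPM in Ogt iKO and 147 and 152 CPM in control. The log2 fold change of Daxx was -0.04 (95% confidence interval -0.18 to 0.10, adjusted p = 0.6076, edgeR), and its sign turned under other scalings. These intervals leave out falls of the size of Hira in both genes. The Daxx to Atrx ratio was 0.425 and 0.421 in Ogt iKO and 0.505 and 0.438 in control. Among genes tied to ATRX and DAXX, Pml, whose protein forms the nuclear bodies that hold DAXX, fell by 0.37 and Morc3 by 0.33. Dek, another H3.3 chaperone, fell by 0.68 from 448 and 431 CPM to 270 and 277 CPM. Sp100, a nuclear body protein, had 2.11 and 0.903 CPM in Ogt iKO and 0.517 and 0.261 CPM in control (edgeR, log2 fold change 1.94, SE 0.545, adjusted p = 0.01265). These 7 partner genes were thus split 3 higher and 4 lower, beside 33.2% and 32.0% of all genes tested.

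Rbbp4 and Rbbp7 moved in opposite directions. Both encode WD-repeat proteins that grip H4, and their coding sequences are 78.4% identical over 1275 aligned bases. Rbbp4, on chromosome 4 from 129307100 to 129335370, had 609 and 623 CPM in Ogt iKO against 899 and 822 CPM in control (edgeR, log2 fold change -0.48, SE 0.0631, adjusted p = 0.0002176). Rbbp7, on chromosome X from 162760372 to 162779090, had 547 and 581 CPM in Ogt iKO against 477 and 445 CPM in control (edgeR, log2 fold change 0.29, SE 0.0625, adjusted p = 0.003404). The groups overlapped for neither gene. The Rbbp7 to Rbbp4 ratio went from 0.530 and 0.541 in control to 0.899 and 0.933 in Ogt iKO. Both Rbbp7 and Atrx lie on chromosome X, where the median over 549 genes tested was 0.25, with 44.4% called higher and 23.7% lower, and the value of Rbbp7 was near that median. A processed pseudogene, Gm6382, matches 42.0% of the Rbbp7 transcript at 97.1% identity and is no row of the count tables, so reads shared with it are uncertain. Pseudogenes also match part of Nasp (Gm6986, 56.8% of the transcript at 90.7% identity) and Rbbp4 (Gm4800, 29.0% at 90.9%). The promoters of the paralogs are shown because the genes diverged, with E2F cores in capitals.
Rbbp4, chr4:129335371-129335620, minus strand: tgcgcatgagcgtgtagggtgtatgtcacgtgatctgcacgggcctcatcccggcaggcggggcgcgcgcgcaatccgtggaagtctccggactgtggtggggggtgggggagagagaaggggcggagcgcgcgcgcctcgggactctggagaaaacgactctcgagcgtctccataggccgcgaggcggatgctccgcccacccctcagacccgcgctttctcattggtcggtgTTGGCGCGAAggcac
Rbbp7, chrX:162760122-162760371, plus strand: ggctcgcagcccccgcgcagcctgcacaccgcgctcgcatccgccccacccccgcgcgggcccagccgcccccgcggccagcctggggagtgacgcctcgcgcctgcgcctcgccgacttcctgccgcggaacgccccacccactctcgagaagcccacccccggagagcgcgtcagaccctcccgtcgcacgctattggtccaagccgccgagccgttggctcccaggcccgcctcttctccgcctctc
Rbbp4 held 2 overlapping cores, 15 to 9 and 12 to 6 bases before its start. Rbbp7 held 0 in this window.

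Levels per length were compared to see how the balance between chaperones changed, as CPM per kilobase of the principal GENCODE transcript. In control cells Nasp led with 662 ± 1.97 CPM per kilobase (SD, n = 2), followed by Rbbp7 with 212 and 198, Rbbp4 with 195 ± 12.4 and Chaf1b with 103 ± 2.25. Daxx followed with 57.9 ± 1.51, Hira with 47.9 ± 1.28 and Chaf1a with 37.6 ± 0.433. Asf1a with 31.8 ± 3.74, Atrx with 31.1 ± 3.94 and Asf1b with 27.6 ± 2.39 came last. The libraries of Rbbp7 and Rbbp4 overlapped in this order, as did those of the last 3 genes. In Ogt iKO, Chaf1b dropped from rank 4 to rank 9, at 27.2 ± 1.85 CPM per kilobase, where its libraries overlapped those of Chaf1a (28.7 ± 2.48) and Asf1a (28.8 ± 2.20). Asf1b was last in Ogt iKO with 14.8 ± 0.368. With the merged length of all exons in place of the principal transcript, Chaf1b went from rank 5 to rank 10, where its libraries (10.5 and 11.5 CPM per kilobase) overlapped those of Asf1b (11.5 and 11.1), so the last place is not separated. On that length Rbbp7 (194 ± 8.32) stood above Nasp (99.6 ± 8.76) in Ogt iKO, the reverse of the order by principal transcript (251 ± 10.8 and 353 ± 31.1). The places of Nasp and of the last genes therefore depend on the length used.

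Other genes that feed H3-H4 to the fork moved in both directions. Of 11 such genes 5 fell, 2 rose and 4 were not called, with a median of -0.12. These shares, 45.5% lower and 18.2% higher, stand beside 32.0% and 33.2% of all genes tested, and the 7 called of 11 are near the 65.3% called over all genes. Pcna, the clamp that holds CAF-1, fell by 0.89, from 229 and 225 CPM in control to 121 and 124 CPM in Ogt iKO. Mms22l and Tonsl, partners that read new H4 behind the fork, fell, with values of -0.49 and -0.31, and Mcm2, the helicase subunit that binds parental H3-H4, fell by 0.22. Grwd1 fell by 0.18. Dnajc9, a heat shock co-chaperone of H3-H4, rose by 0.68, from 87.9 and 81.8 CPM to 128 and 143 CPM, and Tlk2, a kinase of ASF1, rose by 0.41. Tlk1 (-0.12), Ipo4 (-0.02), which imports H3-H4, Hat1 (0.03), which acetylates new H4, and Cdan1 (0.04), which holds ASF1 in the cytoplasm, were not called. On library totals the counts of this list were 5 higher and 2 lower, so the direction of its small changes depends on scaling.

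Of 8 chaperones that work with transcription or shuttle histones, 6 fell, 1 rose and 1 was not called, with a median of -0.45, where 32.0% of all genes tested fell and 33.2% rose. Npm1 fell by 0.99, from 1916 and 1750 CPM in control to 881 and 970 CPM in Ogt iKO, and the value of Set was -0.89. The FACT subunits Ssrp1 and Supt16 fell, with values of -0.61 and -0.46, as did Nap1l1 (-0.44) and Nap1l4 (-0.32). Supt6, which travels with RNA polymerase, rose by 0.20, and Spty2d1 had a value of 0.29 (adjusted p = 0.06167, edgeR). Of 5 genes for the centromeric H3 variant 3 fell and 0 rose, beside 32.0% lower and 33.2% higher over all genes tested. Cenpa (-0.61) and Oip5 (-0.86) were among those that fell, while the chaperone Hjurp (0.20) and Mis18a (-0.18) were not called. Among 6 genes for histone mRNA 3 fell, Slbp (-0.92), which binds the stem loop of replication-dependent histone mRNA, Casp8ap2 (-0.54) and Zfp473 (-0.47), and Npat (0.04), Lsm10 (-0.29) and Lsm11 (0.06) were not called. These 3 lower and 0 higher of 6 stand beside 32.0% lower and 33.2% higher over all genes tested. The H3.3 genes themselves had values of -0.00 for H3f3b, at 589 and 582 CPM in Ogt iKO and 597 and 575 CPM in control, and -0.78 for H3f3a (adjusted p = 0.0003302, edgeR), which was counted at only 14.3 and 14.2 CPM in Ogt iKO and 25.7 and 23.3 CPM in control. H3.3 genes have processed copies in the genome, so their counts are uncertain.

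**Figure D4:**
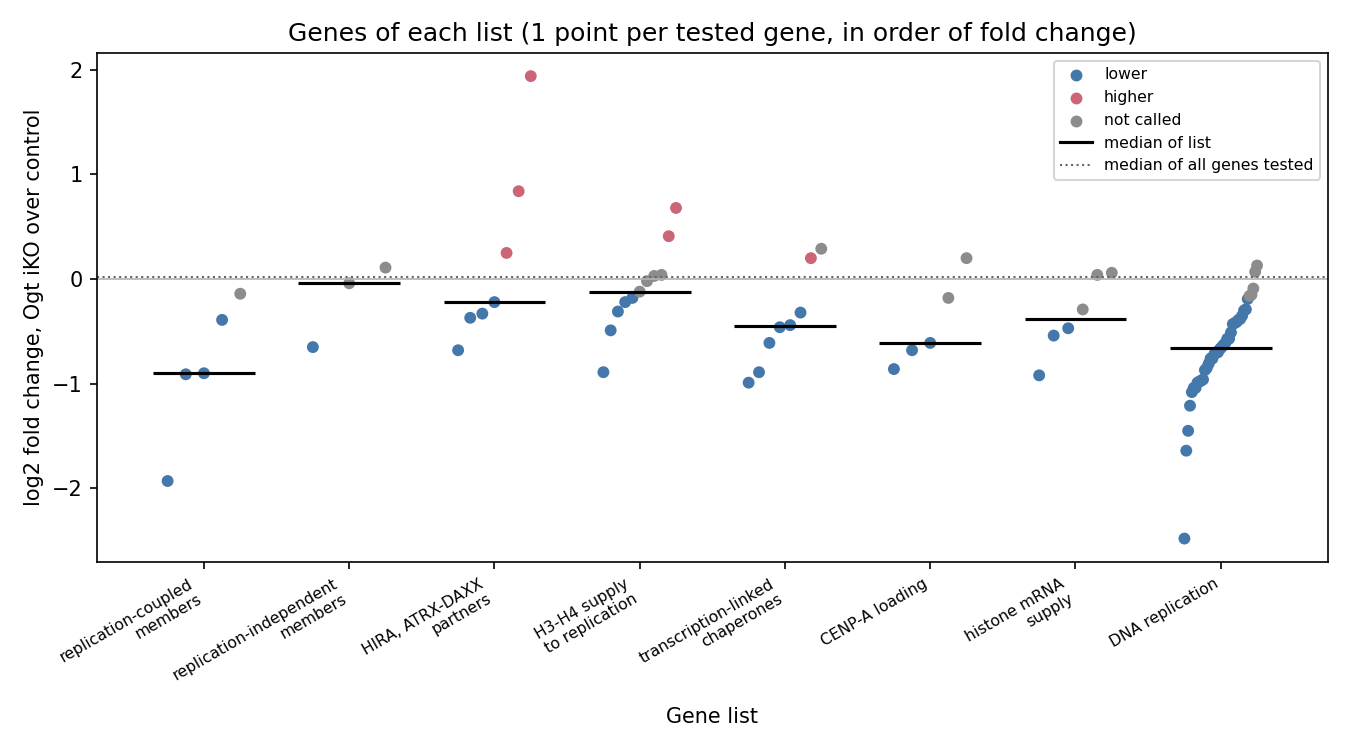
Log2 fold change (Ogt iKO over control) of each tested gene in 8 lists, 1 point per gene coloured by call, with the median of each list as a line and that of all genes tested as a dotted line. The DNA replication list (35 of 40 lower) and the replication-coupled chaperones (4 of 5 lower) have medians of -0.66 and -0.90, and the replication-independent chaperones -0.04.

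In the same libraries most DNA replication genes fell. Of 40 such genes 35 fell, 0 rose and 5 were not called, with a median of -0.66, where 32.0% of all genes tested fell. The stem cell markers moved likewise: 14 of 16 fell, 1 rose and 1 was not called, with a median of -0.67. Ccne1, the cyclin of S phase entry, fell by 2.48, from 463 and 419 CPM in control to 74.2 and 83.6 CPM in Ogt iKO, and the next largest falls were those of Mcm10 (-1.64), Mcm3 (-1.45), Mcm4 (-1.21) and Gins2 (-1.08). Of the 40, 1 gene, Ccne1, had a lower value than Chaf1b. The other chaperone genes except Rbbp7 lay within the range of the list (-2.48 to 0.13), those that were not called included. Summed over the 40 genes the level was 5719 and 6043 CPM in Ogt iKO and 9975 and 9652 CPM in control. The part of these changes in the fall of the chaperone genes was not tested. Genes that mark the 2-cell-like state rose in the same libraries: all 14 tested of the 18 listed, several of them in families of near-identical copies, were called higher, where 33.2% of all genes tested rose, with summed levels of 248 and 266 CPM in Ogt iKO and 66.8 and 50.7 CPM in control. Whether these changes are linked to CAF-1 was not tested.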

How the data were processed

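Counts per gene were deposited by the authors for each library as raw whole numbers without normalization. STAR, Picard and the build mm10 are named in the submitters' processing notes. Versions, annotation and the strand counted are not given in the sources used here. Libraries were made with a stranded kit for polyadenylated RNA, per the labels' protocols. Groups came from the titles. The tables held 25239 symbols and no row without a gene.

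Differential expression was tested in R 4.3.3 by edgeR 4.0.16 (quasi-likelihood, TMM, filterByExpr, 2 libraries against 2, no covariate, Benjamini-Hochberg, adjusted p under 0.05) on the whole table and checked on simulated data. CPM uses TMM-scaled library sizes, except for the limit of 3 counts, which uses library totals. Standard errors come from the fold change and its F statistic. The common biological coefficient of variation was 7.82%. Replicates differed beyond sampling noise (chi-square per degree of freedom 7.43 for Ogt iKO, 4.47 for control). Alternatives were RLE, upper-quartile and library-total scaling, DESeq2 1.42.0, other filters, a robust spread, a replicate block, an adjusted p under 0.01 and leaving out each library. The fits that left out a library had no spread within its group, so their calls rest on the other group. Gene spans and promoters are RefSeq's (GRCm38.p6), from separate tables: the span is that of the whole gene, and a promoter is placed at a listed start, which can lie inside the span. Exons and transcripts are GENCODE's for GRCm38. Near-identical transcripts were found with blastn 2.17.0 (at least 90% identity over 200 bases).

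The members and lists were chosen with earlier results of these data known. All 10 chaperone genes are named, with genes of the lists, the tested genes beside them and genes among the 5 most like Chaf1b. Some genes that these rules name are not reported here. Genes of lists over 11 were limited to the 6 of largest change. The listed symbols Zscan4e and Duxf3 had no row. Summed levels of lists include genes that were not tested.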

Additional observations from a re-analysis of the deposited data

How the results depend on the processing

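The calls of the 7 chaperone genes that passed the threshold held under all 13 alternatives each (91 of 91 values). On library totals the values of these genes moved upward, from -0.39 to -0.22 for Chaf1a, from -0.48 to -0.31 for Rbbp4 and from 0.29 to 0.46 for Rbbp7. The fits with the replicate number as a replicate block gave 1 chaperone gene higher and 6 lower, the same counts as without it. Of all genes, these fits called 4922 higher and 4719 lower. Deviations of same-numbered libraries correlated at 0.0859, and nothing in the labels pairs them. With library totals the chaperone genes called higher were 2 and the replication-independent ones called higher 1, and over the fits without 1 library these counts ran from 1 to 2 and from 0 to 1. Signs turned for genes that were not called: Asf1a at 0.03 and Daxx at 0.13 on library totals, Daxx at 0.00 with upper-quartile factors and 0.02 without Ogt iKO replicate 1, and Atrx at -0.02 without control replicate 1. Leaving out 1 library gave -0.02 to 0.24 for Atrx and -0.11 to 0.02 for Daxx.

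For the other lists, 241 of 260 counts stayed within 1.5 times. On library totals, genes called higher went from 0 to 1 for the H3.3 genes, from 2 to 5 for supply to replication, from 1 to 2 for transcription-linked chaperones, from 0 to 1 for histone mRNA supply and from 0 to 1 for DNA replication, and genes of supply to replication called lower went from 5 to 2. The 3 partners of HIRA and ATRX-DAXX called higher became 1 with DESeq2, at an adjusted p under 0.01, without Ogt iKO replicate 1 or without control replicate 2. The 1 transcription-linked chaperone called higher became 2 with upper-quartile factors, a robust spread, the replicate block or without Ogt iKO replicate 2, and 0 at an adjusted p under 0.01. Fibroblast markers went from 5 higher and 1 lower to 3 and 0 with a robust spread, to 18 higher without Ogt iKO replicate 2 and to 14 lower without Ogt iKO replicate 1. The cause was not tested. With the 50 bases after the start included, the numbers of chaperone genes holding each promoter motif stayed within 1.5 times. Those with an E2F core went from 3 to 4, with Atrx added. DESeq2 called 3460 genes higher and 3995 lower.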

Other observations

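The tested genes next to the chaperone genes were compared as a description of the surroundings. Prkaca, a kinase gene that starts 2783 bases after Asf1b ends, had a log2 fold change of -0.68 beside -0.90 for Asf1b, while Adgrl1 on the other side had 0.52. Zbtb8os, 162 bases beyond the end of Rbbp4 where its start lies, had -0.32 beside -0.48, and Sync, which overlaps Rbbp4 on the opposite strand, rose by 1.04 from 18 and 18 counts in control to 47 and 32 in Ogt iKO. Without the counted strand, reads of Sync and Rbbp4 cannot be told apart. Nasp, with -0.91, lay between Gpbp1l1 at 0.03 and Akr1a1 at 0.17. Daxx lay between BC051226, whose value was 1.17, and Zbtb22, whose value was -0.01.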
